A study of Mus musculus with 16 samples.

Results

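The M-CSF and GM-CSF ligand and receptor genes are 7 genes of the mouse: the ligands Csf1, Il34 and Csf2, and the receptor chains Csf1r, Csf2ra, Csf2rb and Csf2rb2. They were chosen by symbol from the 54532 genes of the deposited count table and are described in all 16 libraries. RNA was sequenced from bronchoalveolar lavage cells, the cells washed out of the airways, of mice aged 8 to 10 weeks whose strain the labels spell C56BL/6J. The groups were bleomycin males, saline males, bleomycin females and saline females, with 4 libraries each, and the cells were taken 14 days after the treatment. Bleomycin, a chemotherapy drug used in mice to injure lungs, was given at 4 U/kg into the oropharynx, and saline was the vehicle. The comparisons ask what bleomycin did to these genes in each sex and whether the sexes differed.

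M-CSF, the product of Csf1, and interleukin 34, the product of Il34, bind the same receptor tyrosine kinase, encoded by Csf1r, which most mononuclear phagocytes need to survive and multiply. GM-CSF, the product of Csf2, binds an alpha chain encoded by Csf2ra and signals through the common beta chain encoded by Csf2rb, which the interleukin 3 and interleukin 5 receptors share. Mice carry another beta chain, encoded by Csf2rb2, that serves interleukin 3. In the lung, GM-CSF from the alveolar epithelium drives the maturation of fetal monocytes into alveolar macrophages and their clearance of surfactant.

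Total counts per library ran from 21240382 to 24225885 in bleomycin males, from 16471022 to 19207944 in saline males, from 18871879 to 24567609 in bleomycin females and from 16385784 to 21393539 in saline females. Levels are in CPM, counts scaled to the library's total over the 15257 genes tested, times a TMM composition factor. That factor was 0.863 to 1.03 in bleomycin libraries and 1.05 to 1.10 in saline libraries. Changes are log2 fold changes from 1 edgeR quasi-likelihood fit over all 16 libraries, with an approximate standard error (SE), and a gene was called at a Benjamini-Hochberg adjusted p below 0.05 over 15257 genes. The labels do not say whether the libraries of a group came from separate animals, so the p-values measure the spread between these libraries only. No library repeated another within counting noise. C33 and C65 stood farthest apart among the bleomycin males, and C49 and C69 among the bleomycin females, with a chi-square per gene of 67.03 and 70.55, and results that rest on any of these are given without it.

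Of the 7 genes, 5 passed the filter on low counts: Csf1, Csf1r, Csf2ra, Csf2rb and Csf2rb2. Csf2 and Il34 did not, and are given below by their counts in every library.

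Csf1 (ENSMUSG00000014599, chr3:107741048-107760469, minus strand), Csf2ra (ENSMUSG00000059326, chr19:61224402-61228418, minus strand) and Csf2rb2 (ENSMUSG00000071714, chr15:78282507-78305721, minus strand) have entries among the RefSeq promoters that begin at the start of the gene in the count table, build GRCm38.p6. They are shown because Csf1 had the largest change of the 5 members tested and the receptor chains Csf2ra and Csf2rb2 changed little. Each window holds 250 bases before the gene's start and 50 from it, read 5′ to 3′ on the gene's strand, at chr3:107760420-107760719, chr19:61228369-61228668 and chr15:78305672-78305971. Capitals mark a core of NF-kB sites, GGG and CC with any 5 bases between them, on either strand in Csf1 and Csf2ra, and the letters GAGGAAGT, a core of PU.1 sites, on the opposite strand in Csf2rb2.
Csf1: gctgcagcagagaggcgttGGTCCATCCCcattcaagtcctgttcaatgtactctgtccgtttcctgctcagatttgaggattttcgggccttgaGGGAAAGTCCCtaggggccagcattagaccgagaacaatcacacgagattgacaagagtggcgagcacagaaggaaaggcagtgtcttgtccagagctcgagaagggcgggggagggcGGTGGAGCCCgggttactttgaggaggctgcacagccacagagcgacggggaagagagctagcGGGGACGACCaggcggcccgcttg
Csf2ra: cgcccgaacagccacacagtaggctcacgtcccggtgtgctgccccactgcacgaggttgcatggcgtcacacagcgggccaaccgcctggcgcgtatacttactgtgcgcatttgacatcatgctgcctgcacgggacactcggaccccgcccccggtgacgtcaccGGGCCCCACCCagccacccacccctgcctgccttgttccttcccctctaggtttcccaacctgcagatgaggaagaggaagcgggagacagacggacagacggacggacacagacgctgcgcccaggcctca
Csf2rb2: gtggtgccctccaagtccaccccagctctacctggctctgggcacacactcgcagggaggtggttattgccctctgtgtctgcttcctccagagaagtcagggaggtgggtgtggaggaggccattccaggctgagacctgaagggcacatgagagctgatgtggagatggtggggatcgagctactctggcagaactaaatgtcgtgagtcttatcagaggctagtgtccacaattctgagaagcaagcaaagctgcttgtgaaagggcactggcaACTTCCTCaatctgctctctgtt

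The Csf1 window held 5 NF-kB matches, of which those beginning at bases -155 and -154 from the start overlap on opposite strands. How many promoters hold as many matches was not counted. The Csf2ra window held an overlapping pair of NF-kB matches at bases -82 and -81, and the Csf2rb2 window held the PU.1 match at base 28. Only the exact PU.1 letters were marked. The Csf2ra window also holds GAGGAAGA and GAGGAAGC, which differ from them in the last letter and are not in capitals. The NF-kB letters stood in 50.8% of the 32851 RefSeq promoters of this length and the PU.1 letters in 3.2%, so a match to the NF-kB letters is common. The letters TGANTCA of AP-1, present in 7.81% of promoters, and those of interferon-stimulated elements, GAAA and GAAA with any 2 bases between them, present in 3.44%, were searched on both strands as well and had no match in these 3 windows. The table of RefSeq promoters was matched by symbol, with an entry for 4 of the 7 genes. Csf2 has an entry that begins elsewhere than its gene in the count table, and Csf1r, Csf2rb and Il34 were not matched.

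Csf1 was the ligand gene with the most counts. It stood at 13.5 CPM in C33, 20.4 in C65, 21.0 in C66 and 18.8 in C67 among bleomycin males, against 0.879 CPM in C70, 0.859 in C71, 0.980 in C72 and 0.872 in C73 among saline males. In bleomycin females it stood at 14.9 CPM in C49, 20.2 in C50, 13.8 in C68 and 14.1 in C69, against 0.833 CPM in C74, 1.22 in C75, 0.683 in C76 and 0.795 in C77 among saline females. Every bleomycin library was far above every saline library in both sexes, and among the bleomycin libraries C33 was the lowest male and C50 the highest female.

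Csf1 rose in males by 4.35 (SE 0.21, adjusted p = 1.00e-11, edgeR), a 20.4-fold change with a 95% interval of 15.1 to 27.5. In females it rose by 4.13 (SE 0.21, adjusted p = 1.93e-11), a 17.5-fold change with an interval of 13.0 to 23.6. The saline levels rest on 15 to 20 counts per library in males and 13 to 28 in females, against 310 to 423 counts in bleomycin males and 229 to 481 in bleomycin females. Without C33 the change of Csf1 in males was 4.47 and without C65 it was 4.29, and in females it was 4.16 without C49 and 4.15 without C69. In males 696 of the 15257 genes tested had a larger log2 fold change than Csf1. In a mixture of cells, more cells of a kind that makes Csf1 and more Csf1 RNA per cell cannot be told apart.

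Il34 (ENSMUSG00000031750, chr8:110741829-110805924, minus strand), the other ligand of the M-CSF receptor, was close to the limit of detection in every group. Bleomycin males held 2, 10, 3 and 7 counts and saline males 1, 6, 2 and 1, while bleomycin females held 4, 6, 4 and 2 counts and saline females 0, 4, 0 and 1. The groups overlapped in both sexes. An exact two-sided permutation test of 4 against 4 libraries on log2(CPM + 0.5) gave p = 0.257 in males and p = 0.0571 in females, or 0.343 and 0.229 after adjustment over 4 such tests, and the smallest p this design allows is 0.0286. Antisense genes that overlap Il34 held at most 1 count in any library.

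Csf2 (ENSMUSG00000018916, chr11:54247271-54249667, minus strand), the GM-CSF gene, had counts in bleomycin libraries only, and few. The bleomycin males held 1 count in C33, 3 in C65, 0 in C66 and 5 in C67, and the bleomycin females held 1 in C49, 2 in C50 and 0 in C68 and C69, against 0 in all 8 saline libraries. Over the libraries of a group, 9 counts gave 0.0980 CPM by library totals in bleomycin males, while 0 counts in saline males allow up to 0.0415 CPM (3 counts over the group). Csf2 in bleomycin males was thus 2.36 times that limit. The counting error of the 9 counts is left out, so this ratio is not a lower bound of the fold. It rests largely on C67, and leaving that library out was a setting chosen after seeing the data. Then 4 counts remain and the ratio is 1.42, and without any other male library it is 1.73 to 3.12.

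For bleomycin females the 3 counts are themselves at that limit, so no fold is given. The exact permutation test gave p = 0.143 in males and p = 0.429 in females (0.286 and 0.429 adjusted over 4 tests). The limit of 3 counts covers counting error in the saline libraries only. When no filter on low counts was applied, edgeR gave Csf2 an adjusted p of 0.0585 in males, 0.264 in females and 0.0201 over both sexes. A lavage holds cells of the airspace, and how much GM-CSF RNA the lung tissue held was not measured.

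**Figure D1:**
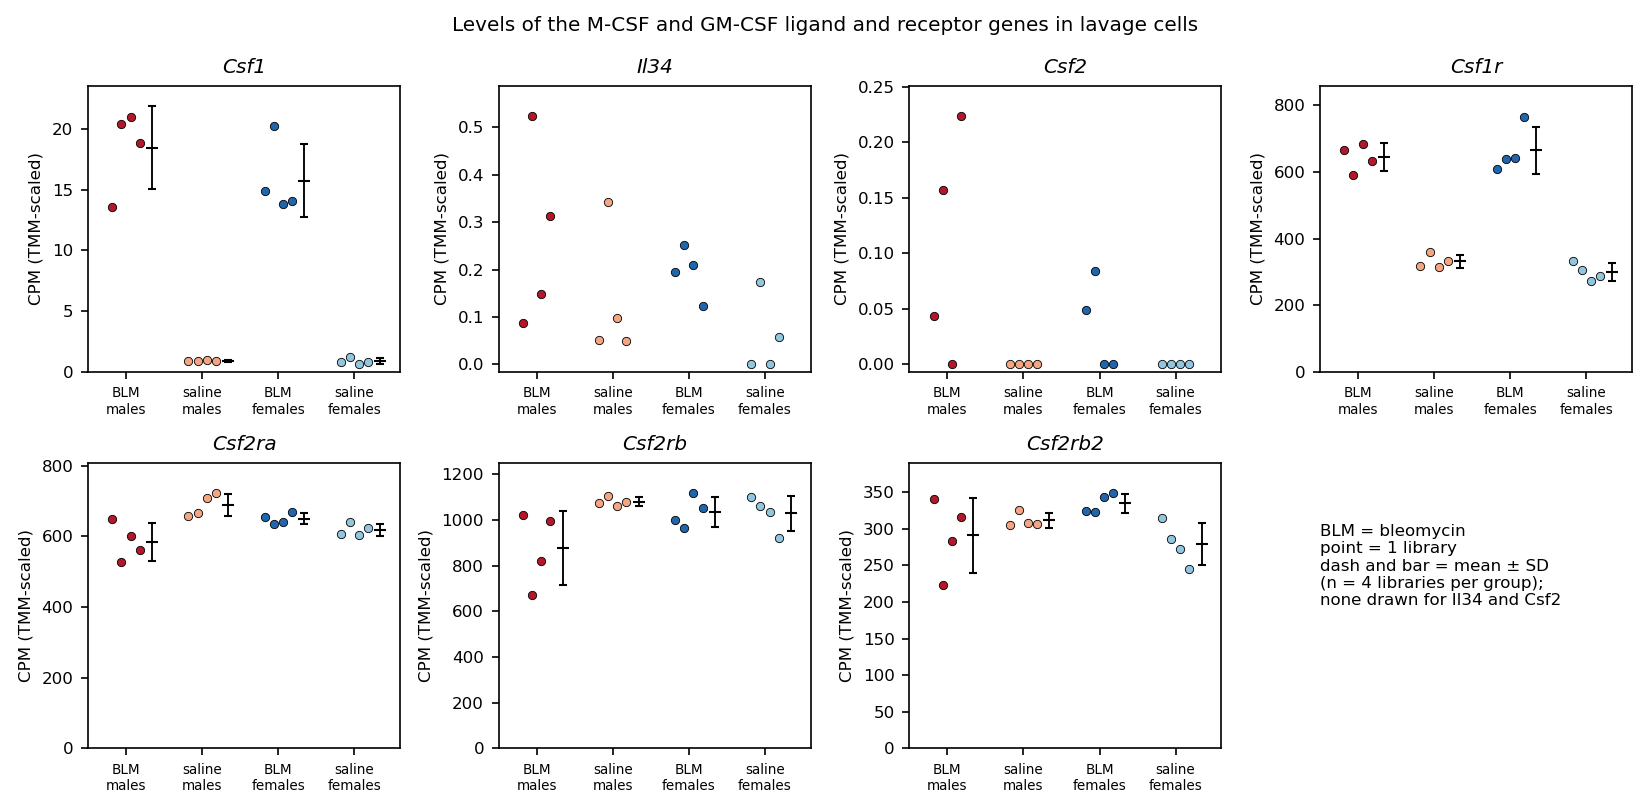
Levels of the 7 genes in CPM (TMM-scaled), 1 point per library, by group; the dash and bar to the right of each group are the mean ± SD of 4 libraries and are left out for Il34 and Csf2, which have few counts. Csf1 lies between 13.5 and 21.0 CPM in bleomycin libraries against 0.683 to 1.22 CPM in saline libraries, Csf1r stands apart between the treatments, and Csf2ra and Csf2rb do so in males only, with Csf2rb from 672 to 1117 CPM over all libraries.

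Csf1r (ENSMUSG00000024621), the receptor of both M-CSF and interleukin 34, was higher under bleomycin in both sexes. The bleomycin males had 667 CPM in C33, 592 in C65, 685 in C66 and 634 in C67, against 319, 359, 316 and 334 CPM in the saline males C70 to C73. The bleomycin females had 608 CPM in C49, 641 in C50, 643 in C68 and 766 in C69, against 333, 305, 273 and 287 CPM in the saline females C74 to C77. The groups did not overlap in either sex, and C69 was the highest library.

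Csf1r rose by 0.96 in males (SE 0.088, adjusted p = 5.28e-08) and by 1.15 in females (SE 0.089, adjusted p = 5.80e-09), which are 1.94-fold and 2.22-fold changes with 95% intervals of 1.71 to 2.21 and 1.95 to 2.52. Without C33 the change of Csf1r in males was 0.94 and without C65 it was 0.99, and in females it was 1.19 without C49 and 1.05 without C69. The protein-coding gene Hmgxb3 overlaps Csf1r on the opposite strand. It held 363 to 691 counts per library, against 5060 to 15287 for Csf1r, and whether the counting used strand is not given in the sources used here.

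Csf2ra, the ligand-binding alpha chain of the GM-CSF receptor, was lower in bleomycin males than in saline males and showed no called change in females. Bleomycin males had 650.3 CPM in C33, 526 in C65, 599.6 in C66 and 561 in C67, against 658 CPM in C70, 667 in C71, 708 in C72 and 722 in C73 among saline males. The groups did not overlap, although C33 came close to C70. The fall in males was -0.24 (SE 0.073, adjusted p = 0.0104), a ratio of 0.848 with a 95% interval of 0.762 to 0.944.

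Without any 1 library the change in males ran from -0.29 to -0.20 and stayed called, and without a filter on low counts its adjusted p was 0.0559. In bleomycin females Csf2ra had 654, 636, 642 and 669 CPM, against 607, 642, 604 and 622 CPM in saline females. These groups overlapped, and the change of 0.072 (95% interval -0.082 to 0.23) was not called (adjusted p = 0.455).

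Csf2rb (ENSMUSG00000071713, chr15:78325752-78353847, plus strand), the common beta chain, varied most among bleomycin males. They had 1021 CPM in C33, 672 in C65, 821 in C66 and 996 in C67, against 1074, 1106, 1060.5 and 1080.1 CPM in the saline males C70 to C73. All 4 bleomycin libraries lay below all saline libraries, but they spanned 672 to 1021 CPM where the saline males spanned 1060.5 to 1106 CPM. Csf2rb in males fell by 0.30 (SE 0.11, adjusted p = 0.0254).

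That call depended on single libraries. Without C65 the Csf2rb change in males was -0.20 (adjusted p = 0.0785), without C66 it was -0.27 (adjusted p = 0.0656) and without C71 it was -0.29 (adjusted p = 0.0523). Averaged over the sexes it was -0.15 (adjusted p = 0.103), and without C33 it was -0.19 and called (adjusted p = 0.0347). In bleomycin females Csf2rb had 1000.2, 967, 1117 and 1054 CPM, against 1102, 1059, 1034 and 923 CPM in saline females. The female groups overlapped throughout and the change was 0.0072 (95% interval -0.22 to 0.24, adjusted p = 0.965).

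Csf2rb2, the beta chain of the interleukin 3 receptor, had a called change in neither sex. Bleomycin males had 341 CPM in C33, 223 in C65, 284 in C66 and 317 in C67, against 306, 326, 308 and 307 CPM in saline males, and the change was -0.098 (95% interval -0.32 to 0.12, adjusted p = 0.443). Bleomycin females had 324, 323, 344 and 349 CPM, against 315, 286, 273 and 245 CPM in saline females. In females the groups did not overlap and the change was 0.26 (95% interval 0.039 to 0.48), but its adjusted p was 0.0536.

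The Csf2rb2 result in females moved across the threshold in several settings. It was called at 0.26 without C33 (adjusted p = 0.0341), at 0.23 without C65 (0.0236), at 0.28 without C49 (0.0492) and at 0.32 without C74 (0.0293), and it was 0.20 without C77 (0.169). The authors' deposited table for females lists Csf2rb2 at 0.24 with an adjusted p of 0.0317. The authors' deposited tables otherwise list Csf1 at 4.35 in males and 4.13 in females, Csf1r at 0.95 in males and 1.13 in females, and Csf2ra at -0.24 and Csf2rb at -0.30 in males only. Their tables hold only genes with an unadjusted p below 0.05, and Csf2 and Il34 are in none of them.

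Read against all genes, the count of called members was close to the background. In males 2 of the 5 tested genes rose (Csf1 and Csf1r), where 31.5% of all genes tested rose, and 2 fell (Csf2ra and Csf2rb), where 24.9% fell, so that 4 were called where 56.5% of genes were. In females the same 2 genes rose, where 26.7% of genes rose, and none of the 5 fell, where 17.2% fell and 43.9% were called in either direction. Averaged over the sexes 2 rose and none fell, where 34.7% of genes rose, 28.8% fell and 63.6% were called.

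The libraries of 2 genes lay apart upward and those of 2 downward in males, where 29.8% of genes lay apart upward and 24.6% downward. In females Csf1, Csf1r and Csf2rb2 lay apart upward and none downward, where 23.8% and 15.3% of genes did. Over all 8 libraries of each treatment, Csf1 and Csf1r lay apart upward and none downward, where 19.2% and 10.3% of genes did.

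Averaged over the sexes, the calls of Csf2ra and Csf2rb and the direction of Csf2rb2 depended on the scaling, and in females the directions of Csf2ra and Csf2rb did. With library totals alone and no composition factor, the median change of all genes averaged over the sexes was -0.20 in place of 0.012, and 34.7% of called genes were higher in place of 54.6%. Csf1 averaged over the sexes was then 4.03 and Csf1r 0.84, both called. Csf2ra (-0.29, adjusted p = 0.000149) and Csf2rb (-0.36, adjusted p = 0.000608) were then called lower, and Csf2rb2 turned to -0.13 (adjusted p = 0.143).

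**Figure D2:**
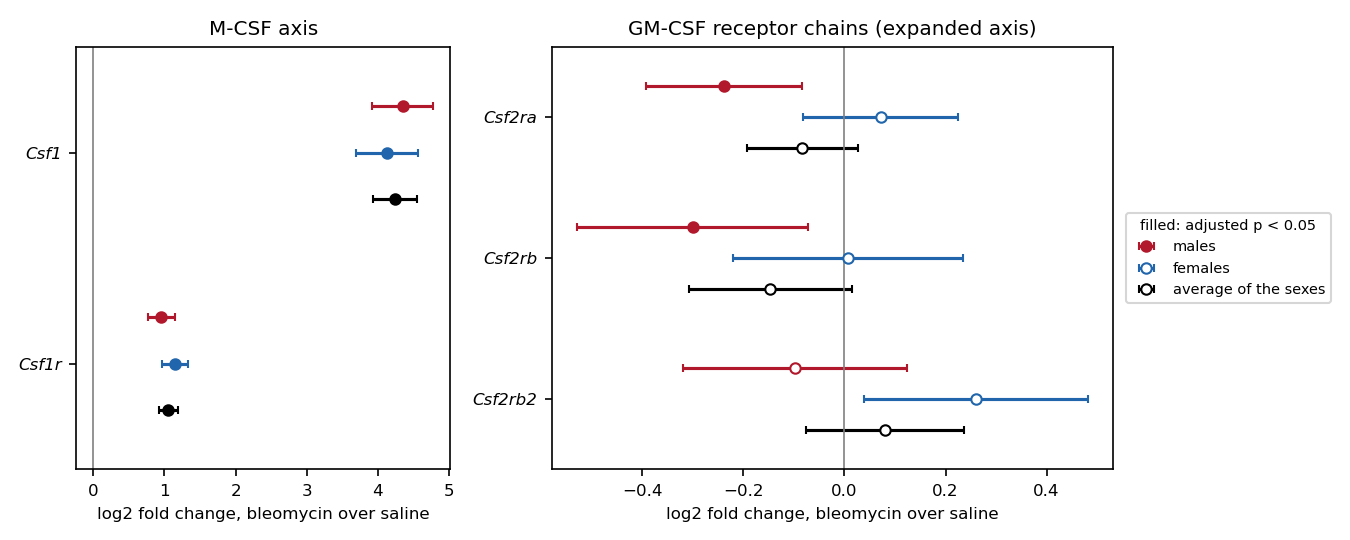
Log2 fold change of bleomycin over saline with its approximate 95% interval for the 5 genes that passed the filter, within each sex and over both; filled points have an adjusted p below 0.05, and the right panel has an expanded axis. Csf1 at 4.35 and 4.13 and Csf1r at 0.96 and 1.15 lie far from 0 in both sexes, while the intervals of the GM-CSF receptor chains lie between -0.53 and 0.48.

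Ratios of FPKM (counts divided by gene length and by a constant for each library) within a library do not depend on the scaling between libraries. The Csf1r to Csf2ra ratio was 0.388, 0.426, 0.433 and 0.428 in bleomycin males, with a geometric mean of 0.418, against a range of 0.169 to 0.204 in saline males. In females its geometric mean was 0.385 under bleomycin (0.352 to 0.433) and 0.183 under saline (0.171 to 0.208). Its log2 difference was 1.20 in males and 1.08 in females, and the groups did not overlap. Each gave p = 0.0286 in an exact two-sided permutation test of 4 against 4 libraries, the smallest p possible, and 0.0381 after adjustment over 4 ratios in both sexes. How many other gene pairs have ratios that stand apart was not computed, for this ratio or those below. Single genes often stood apart, 29.8% upward and 24.6% downward in males and 23.8% and 15.3% in females.

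The Csf1 to Csf1r ratio, ligand RNA over receptor RNA, averaged 0.0261 in bleomycin males (0.0188 to 0.0319) and 0.00250 in saline males (0.00221 to 0.00287). In females it averaged 0.0217 under bleomycin (0.0170 to 0.0292) and 0.00267 under saline (0.00231 to 0.00370). The log2 differences were 3.39 in males and 3.03 in females (adjusted p = 0.0381 each, exact permutation test). The ligand's RNA thus stayed far below the receptor's in every library, and the ratio stood apart between the treatments in both sexes.

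The 2 beta chains shifted against each other in the same direction in both sexes. The Csf2rb2 to Csf2rb ratio was 0.513, 0.511, 0.531 and 0.488 in bleomycin males, against 0.437, 0.453, 0.446 and 0.436 in saline males. It was 0.497, 0.513, 0.472 and 0.508 in bleomycin females, against 0.438, 0.415, 0.405 and 0.408 in saline females. All bleomycin libraries lay above all saline libraries of their sex, and C65, the library lowest in both chains, had a ratio of 0.511. The log2 difference was 0.21 in males and 0.26 in females (adjusted p = 0.0381 each, exact permutation test), and leaving out any library kept it between 0.19 and 0.23 in males and between 0.24 and 0.28 in females. The Csf2ra to Csf2rb ratio, alpha over common beta, differed by 0.079 in males and 0.064 in females, its groups overlapped, and its adjusted p was 0.486 in both sexes.

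Csf2rb and Csf2rb2 are near copies that lie on opposite strands of chromosome 15 with 20030 bases between them, so their separate counts are uncertain. Of the 50-base windows of their GENCODE M21 transcripts, 18.4% of those of Csf2rb2 and 12.3% of those of Csf2rb are identical in the other gene, and with 150-base windows the shares are 3.34% and 2.30%. With the counts of both beta chains summed, the change was -0.25 in males (adjusted p = 0.0553), 0.065 in females (0.661) and -0.094 over both sexes (0.295). The sum therefore had no call in males, where Csf2rb alone had one.

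**Figure D3:**
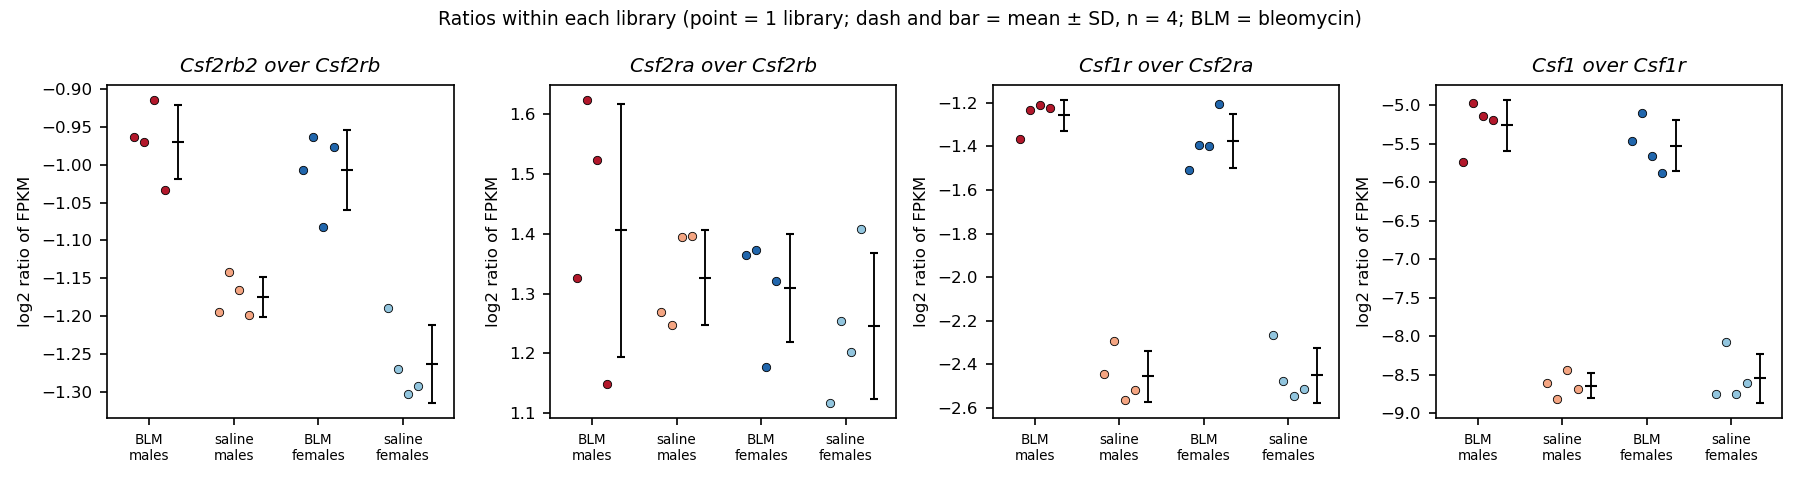
Log2 ratio of FPKM within each library, 1 point per library, by group, with the mean ± SD of 4 libraries; the vertical axes differ between panels. Csf2rb2 over Csf2rb, Csf1r over Csf2ra and Csf1 over Csf1r are higher in every bleomycin library than in any saline library of the same sex, and Csf2ra over Csf2rb overlaps.

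Per length, the gene whose level overlapped that of Csf1r differed between treatments. In FPKM, Csf2ra was the highest of the 7 genes in all groups, at 312 ± 28.7 in bleomycin males, 371 ± 15.9 in saline males, 346 ± 5.6 in bleomycin females and 333 ± 9.15 in saline females (SD, n = 4). Csf1r and Csf2rb overlapped under bleomycin, at 131 ± 8.45 and 119 ± 22.7 FPKM in males and 134 ± 12.8 and 139.8 ± 7.71 FPKM in females. Under saline, Csf1r instead overlapped Csf2rb2, at 67.7 ± 3.94 and 65.5 ± 2.03 FPKM in males and 61.0 ± 5.41 and 58.7 ± 6.12 FPKM in females, and lay below Csf2rb.

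Csf1 came next in every group, at 3.45 ± 0.631 FPKM in bleomycin males, 0.169 ± 0.0104 in saline males, 2.94 ± 0.598 in bleomycin females and 0.166 ± 0.0437 in saline females. Il34 and Csf2 came last and overlapped each other in every group except saline males, where Csf2 had no count and Il34 had at least 1. The Il34 libraries also reached the Csf1 level in saline males, where 1 library had 0.175 FPKM of Il34.

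None of the 5 tested genes was called between the sexes. Under bleomycin 0.059% of all genes were called, 0.0328% higher and 0.0262% lower in males, and all 5 genes overlapped between the sexes, where 0.741% of genes lay apart upward and 0.551% downward. There Csf2ra averaged 584 ± 53.3 CPM in males and 650.4 ± 14.7 CPM in females, and Csf2rb averaged 877 ± 163 CPM in males and 1035 ± 65.9 CPM in females (SD, n = 4). Their log2 fold changes of -0.15 and -0.24 had adjusted p-values of 0.995 each in edgeR. Csf1 averaged 18.4 ± 3.40 CPM in males and 15.7 ± 3.03 CPM in females, a change of 0.23 with a 95% interval of -0.11 to 0.56. Csf1r averaged 645 ± 41.2 CPM in males and 665 ± 69.6 CPM in females, a change of -0.044 (95% interval -0.23 to 0.14).

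Under saline, where 0.269% of genes were called (0.144% higher and 0.125% lower in males), Csf2ra was higher in all 4 males than in all 4 females. It averaged 689 ± 31.3 CPM in males and 619 ± 17.4 CPM in females, a change of 0.15 with an adjusted p of 0.519, and the libraries of 6.85% of genes stood apart in this direction and of 6.3% in the other. Csf1 was at 0.897 ± 0.0560 CPM in males and 0.882 ± 0.233 CPM in females, a change of 0.0068 (95% interval -0.53 to 0.54), and Csf1r at 332 ± 19.7 CPM in males and 299.6 ± 26.0 CPM in females, a change of 0.15 (95% interval -0.036 to 0.33). The authors' deposited table for saline lists Csf2ra at 0.14 with an adjusted p of 0.0586 and Csf2rb2 at 0.14 with an adjusted p of 0.202. Their table for bleomycin males against bleomycin females lists no gene of this group.

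The bleomycin effect was not shown to differ between the sexes. The effect in males minus that in females was -0.31 for Csf2ra (95% interval -0.53 to -0.092), -0.31 for Csf2rb (-0.63 to 0.015) and -0.36 for Csf2rb2 (-0.67 to -0.045). Their adjusted p-values in edgeR were 0.563, 0.643 and 0.612, and their unadjusted values 0.00794, 0.0605 and 0.0274. For Csf1 the difference was 0.22 (-0.41 to 0.85) and for Csf1r -0.19 (-0.45 to 0.068). Of all genes tested, 0.00655% were called for this difference. The falls of Csf2ra and Csf2rb were called in males alone, which is a result of each sex and not a difference between them that passed its test.

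Markers of other cells moved with the treatment, and their part in the changes of Csf1, Csf1r and the GM-CSF receptor chains was not tested. The 12 monocyte and monocyte-derived macrophage markers all rose in both sexes, where 31.5% of all genes tested rose in males and 26.7% in females. Their summed level ran from 5997 to 11113 CPM in bleomycin males against 168 to 234 CPM in saline males. In females it ran from 4466 to 8125 CPM under bleomycin against 175 to 186 CPM under saline. Of 12 resident alveolar macrophage markers 10 fell in males, where 24.9% of all genes fell, and 8 in females, where 17.2% did. Their sums were 12935 to 21052 CPM in bleomycin males against 20057 to 21811 CPM in saline males. In females they were 12851 to 25937 CPM under bleomycin against 25999.5 to 29001 CPM under saline. All 12 resident markers had counts in every group. Of the monocyte markers Plac8 was at 0 in saline males and Ly6c2 in saline females.

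Averaged over the sexes, 9 of 10 dendritic cell, 9 of 10 T cell, 7 of 7 NK cell, 7 of 7 B cell, 5 of 6 innate lymphoid and 4 of 6 neutrophil markers that passed the filter rose, and in each sex the number that rose was within 1 of this. Of all genes tested, 34.7% rose and 28.8% fell in that average. Red blood cell markers rose in 5 of 5 cases in males and averaged over the sexes. In females 0 of 5 were called, at a median change of 1.68, and the saline female sums were scattered from 7.53 to 441 CPM. The difference of the bleomycin effect between the sexes was called for 0 of 5. Of 10 eosinophil, mast cell and basophil markers 2 passed, with 1 rise and 1 fall. Fibroblast markers were low, with 2 of 8 passing the filter and both rising. Their sum ran from 5.31 to 7.97 CPM in bleomycin males against 1.40 to 2.12 CPM in saline males, and from 4.18 to 7.19 CPM in bleomycin females against 0.696 to 1.37 CPM in saline females, and Col1a1 and Lum were at 0 in all saline libraries.

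Endothelial markers rose in 3 of 4 cases and epithelial markers in 9 of 12 averaged over the sexes, where 34.7% of all genes rose. Endothelial sums were 160.4 to 250.02 CPM in bleomycin males against 161 to 183 CPM in saline males, and Cldn5 was at 0 in all libraries. Epithelial sums overlapped, at 329 to 355 CPM in bleomycin males and 321 to 352 CPM in saline males. A sum follows the genes with the most counts, and the median change of the 12 epithelial markers averaged over the sexes was 2.67. Within the bleomycin males, C65, the lowest in Csf2ra, Csf2rb and Csf2rb2, had the highest sums of dendritic (732 CPM), T (564 CPM), NK (80.6 CPM), B (498 CPM) and red blood cell markers (6024 CPM). C33, the highest in these 3 chains and the lowest in Csf1, had the lowest sums of the same lists, at 376, 319, 38.5, 267 and 67.3 CPM in that order. The highest monocyte, neutrophil and resident macrophage sums of the bleomycin males were in C66. Among bleomycin females C49 had the highest dendritic (541 CPM), T (483 CPM), NK (62.8 CPM) and B cell sums (444 CPM). C50 had the next highest of each, at 514, 445, 54.8 and 385 CPM, and was the lowest in these 3 chains. The next lowest was C49 in Csf2rb and Csf2rb2, but C68 in Csf2ra. A link between these sums and the chains was not tested.

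**Figure D4:**
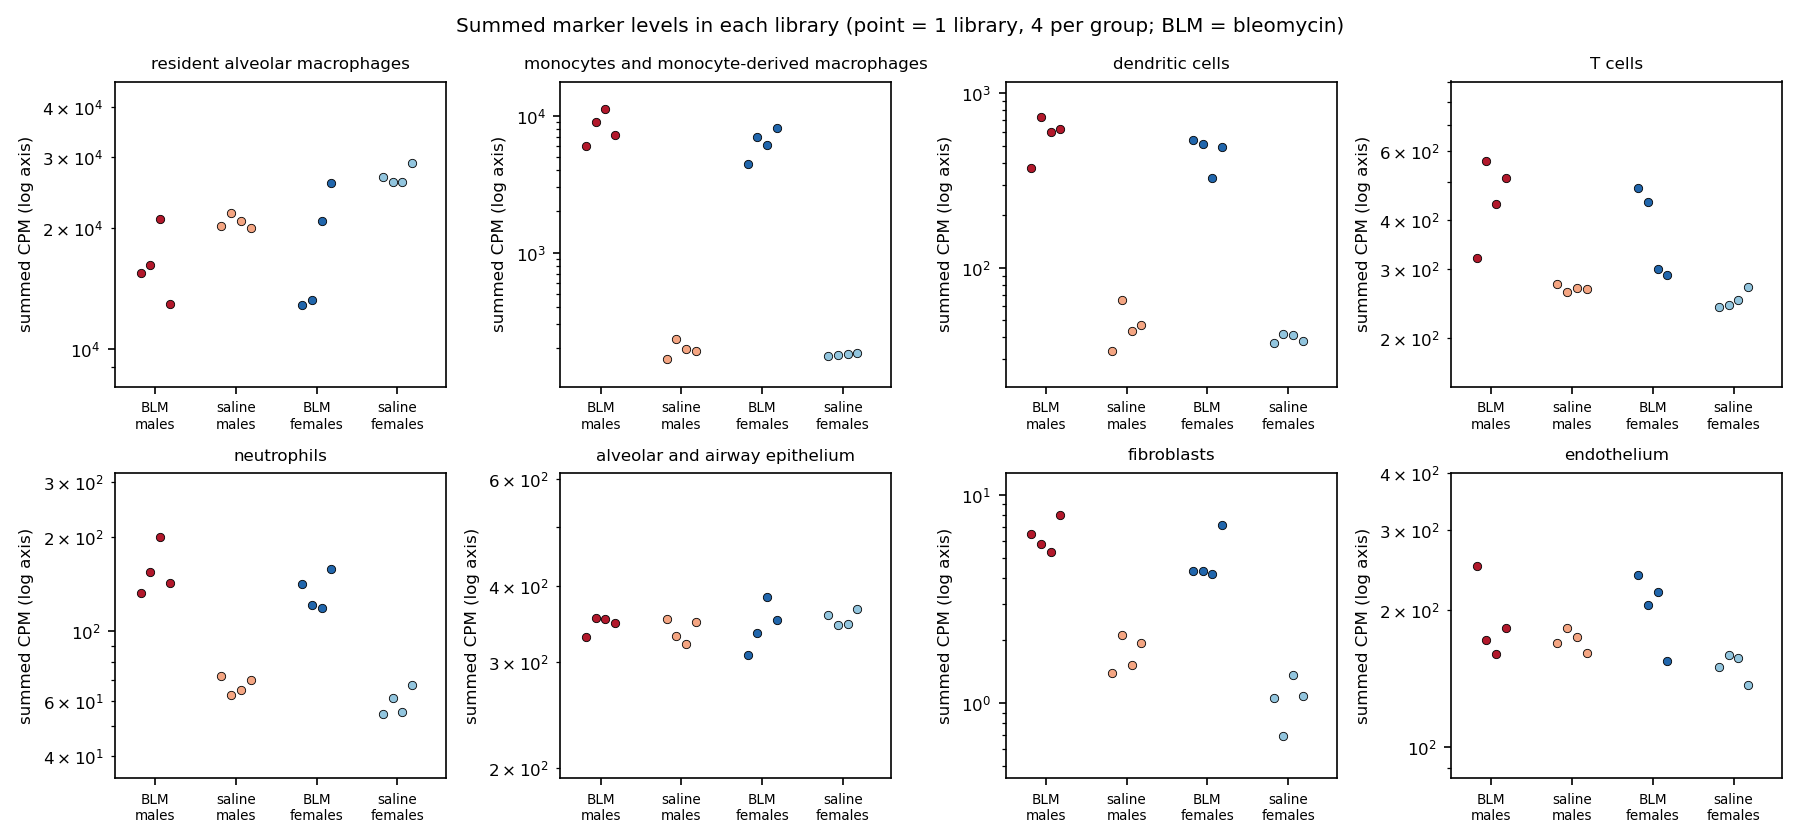
Summed CPM of 8 marker lists in each library, on log axes, 1 point per library, by group. Monocyte and dendritic cell markers stand far apart between the treatments in both sexes, and resident alveolar macrophage markers overlap in males. The epithelial sums overlap in all groups, although 9 of the 12 epithelial markers rose averaged over the sexes.

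Of the receptors and ligands related to these genes more rose than fell. The list held 14 genes, among them the other class III receptor kinases and their ligands and the other users of the beta chains, and 8 passed the filter, of which 7 rose and 1 fell averaged over the sexes, where 34.7% of all genes rose and 28.8% fell. Flt3, the receptor kinase of dendritic cell precursors, averaged 41.4 ± 5.66 CPM in bleomycin males against 2.63 ± 0.832 CPM in saline males. In bleomycin females it averaged 34 ± 7.94 CPM against 2.14 ± 0.504 CPM in saline females, and the rise was 3.98 (SE 0.16). Kit, the stem cell factor receptor, rose by 3.48 (SE 0.16), and its ligand Kitl rose by 3.17 (SE 0.30).

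Sdc1, a cell surface proteoglycan of plasma cells and epithelium, rose by 5.61 (SE 0.27). Csf3r, the G-CSF receptor of neutrophils and macrophages, fell by 0.50 (SE 0.087), at 36.9 ± 4.23 CPM in bleomycin males and 53.5 ± 4.71 CPM in saline males. Il3 and Il5, ligands of the other receptors that use the beta chains, had no count in any library. Il5ra, named after its values were seen, had 42 counts over the bleomycin males and 73 over the bleomycin females, and none in saline libraries.

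Genes of signalling below the M-CSF receptor moved in both directions. All 25 listed genes passed the filter, and 9 rose, 10 fell and 6 were not called averaged over the sexes, with a median of -0.059 against 0.012 over all genes. Of all genes 34.7% rose and 28.8% fell, and the share of the list that rose was near that. With library totals alone 7 listed genes rose and 15 fell. In males 8 rose and 7 fell, and in females 9 rose and 3 fell. Leaving out 1 library, the falls numbered 6 to 9 in males and 1 to 6 in females. Over all alternatives they numbered 6 to 15 in males and 1 to 12 in females. Src, a kinase recruited to the activated receptor, had the largest change, a rise of 2.67 (SE 0.16), at 23.4 ± 4.81 CPM in bleomycin males and 3.91 ± 1.11 CPM in saline males.

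Cblb, a ubiquitin ligase of the Cbl family, rose by 0.98 (SE 0.092), the adaptor Dok2 by 0.81 (SE 0.079) and the inositol phosphatase Inpp5d by 0.51 (SE 0.051). The 10 falls were small, none beyond -0.39. Csf1r itself stood at about 2 times its saline level beside these changes.

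Genes of signalling below the GM-CSF receptor moved in both directions too. Of 17 listed genes, 4 of them shared with the M-CSF list, 8 rose, 6 fell and 3 were not called, with a median of 0.16, where 34.7% of all genes rose and 28.8% fell. In males 7 rose and 5 fell, in females 7 rose and 4 fell, and with library totals alone 6 rose and 7 fell averaged over the sexes. Socs3 rose by 3.62 (SE 0.15), at 119 ± 33 CPM in bleomycin males against 10.1 ± 1.28 CPM in saline males, while bleomycin females had 127 ± 19.5 CPM against 9.87 ± 2.31 CPM in saline females. Socs1 rose by 3.76 (SE 0.25), the survival kinase Pim2 by 2.32 (SE 0.20) and Jak2, the kinase bound to the beta chain, by 0.86 (SE 0.069).

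Cish, an inhibitor induced by STAT5, went the other way, with a change of -0.85 (SE 0.11), at 16.9 ± 1.95 CPM in bleomycin males against 37.9 ± 6.10 CPM in saline males, while bleomycin females had 20.7 ± 4.24 CPM against 29.9 ± 6.46 CPM in saline females. Shc1, an adaptor of the beta chain, changed by -0.50 (SE 0.051). Stat5a and Stat5b, transcription factors that GM-CSF activates, were both named after their values were seen. Stat5a changed by -0.47 (adjusted p = 3.67e-06) and Stat5b by -0.24 (adjusted p = 0.00160). Bcl2l1, a survival gene that STAT5 can induce and that was also named after its value was seen, rose by 0.90 (adjusted p = 8.30e-08).

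**Figure D5:**
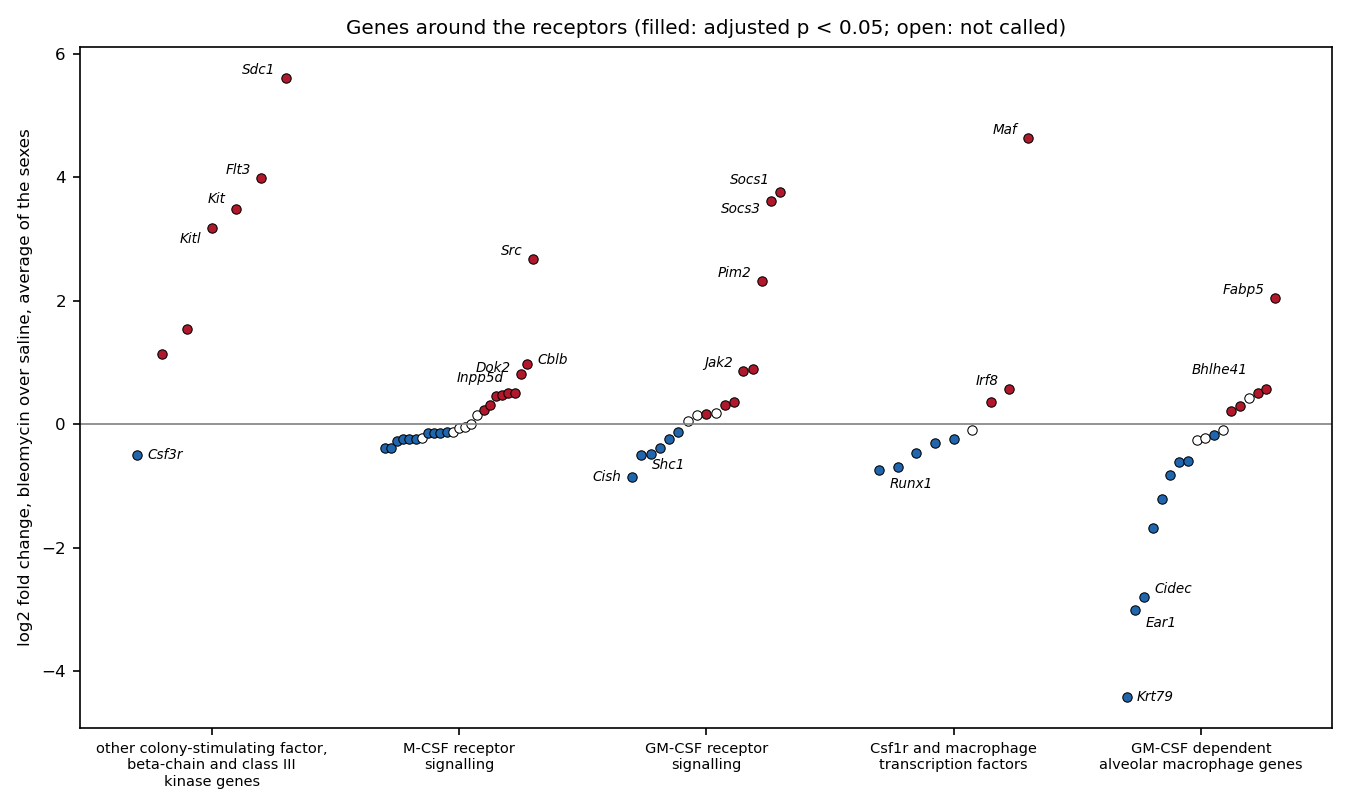
Log2 fold change of bleomycin over saline averaged over the sexes for the genes of 5 lists that passed the filter, 1 point per gene sorted within its list; filled points have an adjusted p below 0.05, and Il5ra, with no count under saline, and 1 of the 10 transcription factors are left out. Most genes of the 2 signalling lists lie near 0 with Src, Socs1, Socs3 and Pim2 above, Maf stands far above the other transcription factors drawn, and Krt79, Ear1 and Cidec lie lowest.

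Among 10 transcription factors of the Csf1r gene and of the macrophage lineage, 4 rose, 5 fell and 1 was not called averaged over the sexes, where 34.7% of all genes rose and 28.8% fell. With library totals alone 3 rose and 6 fell. Maf, which is known in mice to restrain the self-renewal of macrophages, rose by 4.64 (SE 0.20), at 25.4 ± 6.12 CPM in bleomycin males against 1.17 ± 0.408 CPM in saline males, while bleomycin females had 21.8 ± 5.77 CPM against 0.734 ± 0.285 CPM in saline females.

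Irf8, a factor of monocyte and dendritic cell development, rose by 0.57 (SE 0.067). Runx1, which binds the Csf1r promoter and enhancer, changed by -0.74 (SE 0.071), at 164 ± 19.0 CPM in bleomycin males against 316 ± 23.0 CPM in saline males. Spi1, which encodes PU.1, the main activator of Csf1r and of the GM-CSF receptor alpha gene, named after its value was seen, was not called at -0.097 (adjusted p = 0.293), at 476 ± 23.3 CPM in bleomycin males against 489 ± 21.6 CPM in saline males, while bleomycin females had 479 ± 104 CPM against 533 ± 17.5 CPM in saline females.

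Of the genes that depend on GM-CSF in alveolar macrophages more fell than rose. Of 18 genes 9 fell, 5 rose and 4 were not called, with a median of -0.24 averaged over the sexes, where 28.8% of all genes fell and 34.7% rose. In males 9 fell and 5 rose, in females 7 fell and 2 rose, and with library totals alone 12 fell and 3 rose averaged over the sexes. The list shares 10 genes with the resident alveolar macrophage markers. Krt79, a keratin of alveolar macrophages, averaged 23.3 ± 12.3 CPM in bleomycin males and 575 ± 66.2 CPM in saline males. It averaged 36.5 ± 19.3 CPM in bleomycin females and 671 ± 32.7 CPM in saline females, and the change was -4.41 (SE 0.25).

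The ribonuclease gene Ear1 changed by -3.01 (SE 0.17) and the lipid droplet gene Cidec by -2.79 (SE 0.19). Fabp5, a fatty acid binding protein of many activated macrophages, rose by 2.05 (SE 0.078), at 922 ± 96.9 CPM in bleomycin males against 223 ± 22.9 CPM in saline males, and Bhlhe41, a factor of alveolar macrophage identity, rose by 0.50 (SE 0.094). Pparg, the GM-CSF-induced regulator of these cells, named after its value was seen, changed by -0.60 (adjusted p = 6.69e-05). No gene of the 5 lists was called between the sexes or for the difference of the bleomycin effect between them.

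For each of the 5 tested genes, the genes with the most similar pattern were found among 12251 protein-coding genes (those named only by a Gm or Rik number left out) by the root mean square difference of log2(CPM + 0.5) over 16 libraries, each gene centred on its mean. Closest to Csf1 were St14 (0.187), Ddr1 (0.222) and Arhgef10l (0.223), where the median gene differed by 1.82. Closest to Csf1r were Gm2a (0.0855), Unc93b1 (0.10) and Litaf (0.10), with a median gene at 0.577.

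For the GM-CSF receptor chains, which changed less than Csf1, both the nearest and the median distances were smaller, so they are not to be read as closer matches. Closest to Csf2ra were Tti1 (0.0643), Wdr81 (0.0662) and Elmod2 (0.0668), with a median gene at 0.282. Csf2rb was nearest to Mon1b (0.0981), Syk (0.0992) and Scyl2 (0.104), and among the 3 genes nearest to Csf2rb2 were Cog4 (0.0968) and Daxx (0.103), with median genes at 0.317 and 0.314. Neither beta chain was among the other's 3 nearest genes.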

How the data were processed

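RNA of lavage cells was measured in 16 libraries. Raw counts per gene, with positions on GRCm38, were deposited by the authors, made with HISAT2 2.0.5, fastp 0.12.2, DESeq2 and featureCounts 1.5.0-p3 among the tools in the submitters' processing notes, which also list mm10 and mm9 with no role. The deposited FPKM values equal the counts divided by gene length and by 1 constant per library. The log2 fold changes and p-values in the authors' deposited comparison tables are quoted as theirs.

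Genes were kept by edgeR 4.0.16 (filterByExpr by group, minimum count 10; 15257 of 54532), scaled by TMM and fitted under R 4.3.3 in 1 quasi-likelihood model with 1 coefficient per group, for 6 comparisons, with scripts tested on simulated data. An approximate SE was taken as the absolute log2 change over the root of F. Alternatives were DESeq2 1.42.0, limma 3.58.1, other scalings and filters, and leaving out each library. Genes of the pathway lists were named by smallest adjusted p averaged over the sexes, up to 4 of a list plus up to 2 of the opposite direction, and others are said to be named after their values were seen; 2 genes that these rules select are not reported here. The members and lists were chosen with earlier results of these data known.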

Additional observations from a re-analysis of the deposited data

Results flagged for a closer look

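In 42 groups of 4 libraries, over the 7 genes and 4 ratios, 5 had 1 library far from the other 3, by Dixon's 95% critical value for the gap to the nearest library over the group's range. Chance gives about 1 in 20. Csf1 in the bleomycin female C50 was at 20.2 CPM where the other 3 ran from 13.8 to 14.9, and in the saline male C72 at 0.980 CPM where the other 3 ran from 0.859 to 0.879. Without C50 the Csf1 change in females was 3.96, against 4.13 with it. Csf2rb2 in the saline male C71 was at 326 CPM where the other 3 ran from 306 to 308, and Il34 in the same library at 0.343 CPM, from 6 counts, where the other 3 ran from 0.0484 to 0.0980. The log2 ratio of Csf1r to Csf2ra in the bleomycin male C33 was -1.36 where the other 3 ran from -1.23 to -1.21.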

How the results depend on the processing

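Csf1 and Csf1r kept their direction and their call under bleomycin in each sex and averaged over them, in all alternatives run (Csf1 3.95 to 4.47, Csf1r 0.73 to 1.20). With library totals alone Csf2rb2 in males was called at -0.32, Csf2ra (-0.29) and Csf2rb (-0.36) averaged over the sexes were called, making 2 falls in place of 0, and Csf2ra (-0.12) and Csf2rb (-0.19) in females and Csf2rb2 averaged (-0.13) changed sign. With no filter on low counts Csf2ra in males (-0.24) was not called, leaving 1 fall in place of 2, and Csf2rb in females was -0.027. Csf2rb in females was also -0.020 with at least 1 CPM in 4 libraries and -0.0093 with DESeq2 size factors or its Wald test. Csf2rb2 in females was called by limma voom (0.27) and in a fit of the compared groups alone (0.26). Csf1 between saline sexes was -0.0094 with no filter, -0.00094 with the 1 CPM filter and -0.0015 with the compared groups alone. The cause of these changes was not tested.

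Leaving out 1 library, Csf2rb ran from -0.38 to -0.20 in males, from -0.042 to 0.042 in females and from -0.19 to -0.11 averaged; Csf2rb2 ran from -0.18 to 0.0055 in males and from 0.20 to 0.32 in females. Falls in males numbered 1 to 2 and averaged 0 to 1. Csf1r between the sexes under bleomycin ran from -0.084 to 0.032, and Csf1 under saline from -0.10 to 0.22. For males against females DESeq2 called 177 genes under saline where edgeR called 41, and 23 for the difference of the bleomycin effect where edgeR called 1; none was a gene of this group. No paired analysis was possible because the labels give the groups no shared replicate numbers. Depth limits Csf2 and Il34, and Csf1 under saline.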
